A study of Mus musculus with 6 samples.

Results

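The genes of the Wnt pathway were compared between mouse induced pluripotent stem cells (iPSCs, somatic cells returned to pluripotency by reprogramming) with and without serum response factor (SRF). They are 47 genes of 24421 in the count table, chosen by name: 17 secreted ligands, 14 receptors, 9 antagonists and 7 intracellular or nuclear effectors. R-spondin 3 (Rspo3), which is not a Wnt protein, was placed with the ligands. The study sequenced bulk RNA of 3 SRF KO libraries, whose cells carry SRFΔ/Δ, and of 3 WT libraries, whose cells carry the floxed allele SRFf/f and are therefore not unmodified cells. Both groups were grown in medium with serum. The labels used here name no Cre driver, cell clone, passage or feeder layer, and they do not say whether replicates were separate cultures, so that p-values measure the spread between these libraries, which may be technical.

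Wnt proteins are lipid-modified secreted signals that bind Frizzled receptors together with the co-receptors LRP5 and LRP6. Binding stops a cytoplasmic complex built on AXIN and APC from destroying beta-catenin, which then enters the nucleus and acts with TCF and LEF factors on target genes. Many targets, such as Axin2, Nkd1, Notum and Znrf3, restrain the pathway in turn. In mouse pluripotent cells this signal supports self-renewal, in large part by relieving repression by TCF7L1, and in the early embryo it acts in the formation of the primitive streak.

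Total counts were between 26321602 and 36680156 per library. Levels are given as CPM, the counts relative to library sizes scaled by the TMM method, and 1 count was worth between 0.0276 and 0.0389 CPM. Each log2 fold change compares SRF KO with WT and is positive where SRF KO was higher. SE is its approximate standard error, the size of the fold change divided by the square root of the F statistic of the edgeR test. Adjusted p comes from the quasi-likelihood test of edgeR after Benjamini-Hochberg adjustment over 15611 features, and 0.05 was the threshold. Srf itself had 4.20, 3.17 and 4.53 CPM in SRF KO replicates 1 to 3 and 36.6, 29.7 and 37.1 CPM in WT replicates 1 to 3, so that the targeted gene followed the labels in all 6 libraries. WT replicate 2 stood apart: chi-square per degree of freedom was 12.9 and 15.4 between it and the other WT libraries and 3.82 between those. SRF KO replicate 2 also stood apart, but less, with 4.13 and 5.12 to the other SRF KO libraries and 1.83 between those. Whether the replicate 2 libraries shared a batch was not tested.

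Of the 47 genes, 42 had enough counts to be tested. In SRF KO, 22 of them rose and 9 fell, together 73.8%, where 41.1% of all features passed the same test (20.4% higher and 20.7% lower). The median log2 fold change was 0.26 over the 42 genes and -0.02 over all features. Since the genes were chosen with earlier results of these data known, these shares describe the list and do not test it. Without WT replicate 2 the counts were 23 higher and 10 lower of 43 tested (76.7%), beside 48.1% of all features. In 23 of the 42 genes every SRF KO library lay above every WT library (25.3% of all features) and in 11 every one lay below (26.1% of all features), together 34 where 51.4% of all features had groups that did not overlap. Rises of at least 1 on the log2 scale were made by 10 genes and a fall of that size by 1, where 5.27% and 1.7% of all features passed these limits.

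**Figure D1:**
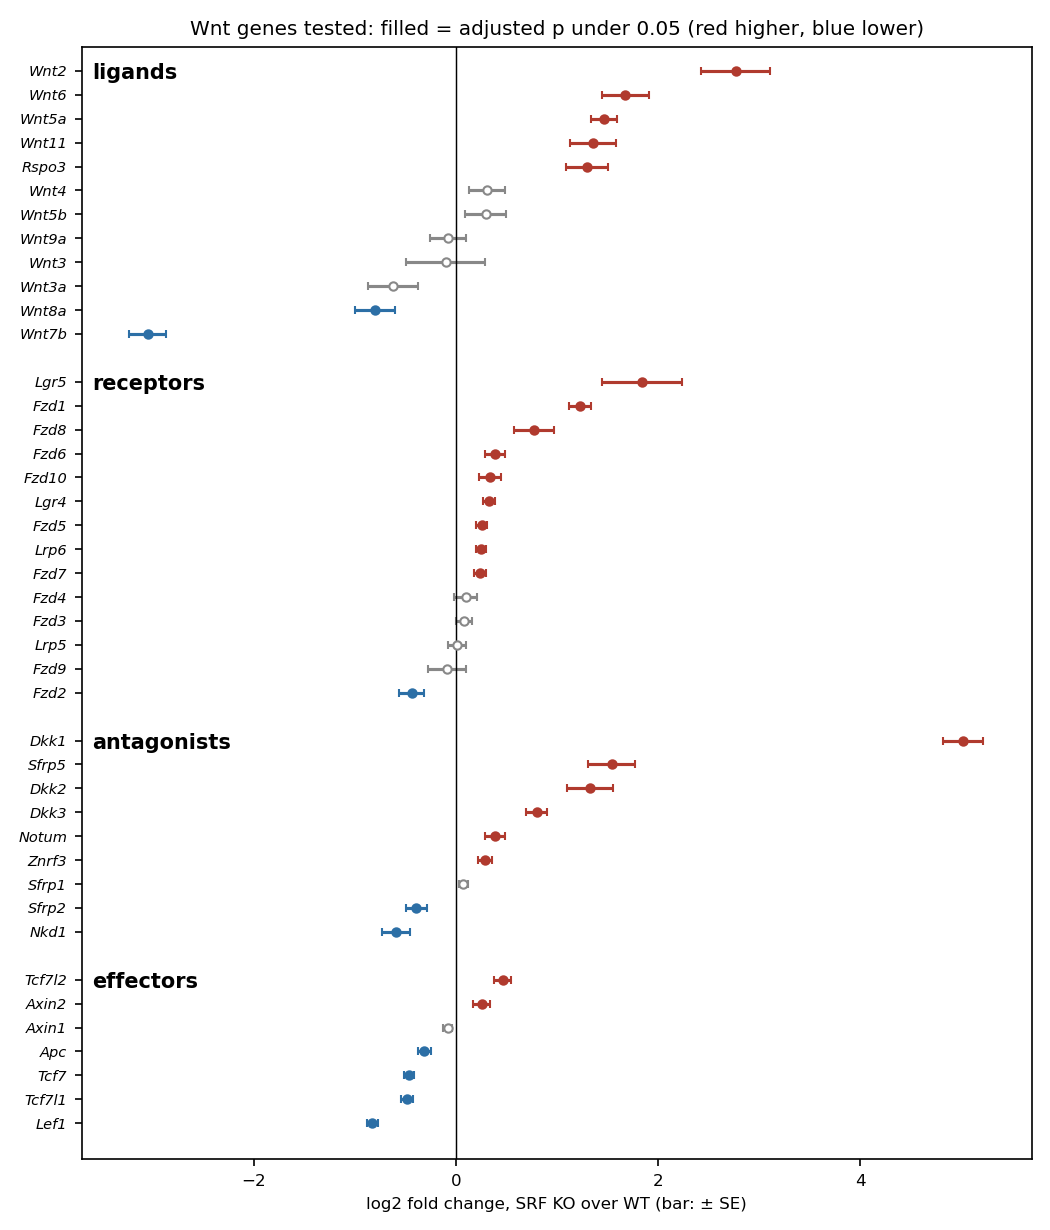
The x axis is the log2 fold change of SRF KO over WT (bars: SE, 3 libraries per group) of the 42 tested genes by role, with filled red points for genes that rose, filled blue points for genes that fell and open points for the others. Dkk1 lies at 5.02 and Wnt7b at -3.05, and 4 of the 7 effectors lie among the falls.

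Markers of cell types moved with these genes, and in bulk RNA a change in the number of cells of a type and a change in RNA per cell cannot be told apart. All 10 pluripotency markers were detected in every library, with summed levels between 5141 and 5254 CPM in SRF KO and between 5987 and 6464 CPM in WT. The list did not move as one: 1 gene, Zfp42, rose (0.17), 4 fell and 5 did not pass. Pou5f1, a core pluripotency factor, averaged 772 ± 11.3 CPM over the SRF KO and 818 ± 52.4 CPM over the WT libraries (SD, n = 3). It did not pass, but did so at -0.13 without WT replicate 2. Nanog fell, from 444 ± 3.02 to 256 ± 2.03 CPM (SD, n = 3). All 12 extraembryonic endoderm markers rose, with sums between 2321 and 2477 CPM in SRF KO and between 199 and 217 CPM in WT, and none was at 0 in any library. Gata4, Gata6 and Sox17 rose by 3.95, 3.66 and 3.57 on the log2 scale. Dkk1, Cer1, Wnt6 and Sfrp5, pathway genes known from such endoderm, rose in the same libraries. They are examples and not a full list, so they do not show that pathway genes of endoderm rose as a set. All 14 fibroblast or feeder markers also rose, by 0.81 to 1.46, with sums between 967 and 1152 CPM in SRF KO and between 475 and 531 CPM in WT, none at 0. Of Wnt genes that fibroblasts also express, Wnt2, Wnt5a, Fzd1 and Dkk3 rose, Fzd2 and Sfrp2 fell and Sfrp1 did not pass. These examples, like the endoderm ones, were named after their values were seen. The part of either cell type in the Wnt results was not tested.

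Mesoderm marker sums lay between 25.2 and 26.8 CPM for the SRF KO libraries and between 23.2 and 24.9 CPM for the WT libraries. Most of each sum came from Eomes, which did not pass (group means 18.6 CPM for SRF KO, 17.5 CPM for WT). The near-equal sums therefore do not show that the list was unchanged. Of 7 tested genes, 2 were higher, Foxf1 (1.88) and Kdr (1.49), 1 was lower, T (-1.15), and 4 did not pass. Neural markers summed to between 101 and 106 CPM in SRF KO and between 107 and 110 CPM in WT, but single genes moved in both directions. Of 7 tested, Nes rose (0.44), Map2 and Neurog1 fell (-1.33 and -1.19), and 4 did not pass. Trophoblast markers summed to between 91.9 and 96.3 CPM in SRF KO and between 121 and 131 CPM in WT, but the list did not move as one. Of 7 tested genes, Plet1 rose (0.54), Tfap2c and Krt7 fell (-1.10 and -2.43), and Cdx2, Eomes, Krt8 and Hand1 did not pass. Tfap2c alone, with a mean of 33.1 CPM over the SRF KO and 70.99 CPM over the WT libraries, differed by more than the sums did. Elf5 was at 0 in SRF KO replicates 1 and 2 and had at most 5 counts in any library. The part of this lineage in the fall of Wnt7b, known from placenta, was not tested.

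**Figure D2:**
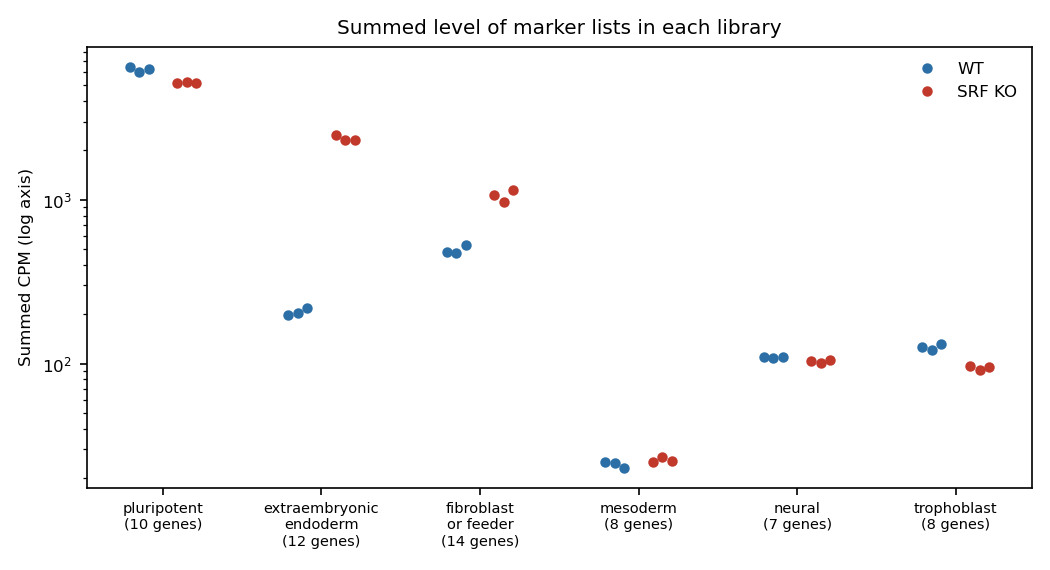
Points are the summed CPM of each marker list in each library on a log axis, with WT in blue and SRF KO in red. The extraembryonic endoderm list lies between 2321 and 2477 CPM in SRF KO against at most 217 CPM in WT, and the fibroblast list between 967 and 1152 CPM against at most 531 CPM.

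Because SRF is the deleted factor, its binding motif was searched in the RefSeq promoter windows of these genes (GRCm38.p6, 250 bases before to 50 after each start), and a TCF/LEF core motif was searched beside it. The table held 37 windows of 29 of the 47 genes. The SRF motif, the CArG box, which reads the same on both strands, was in 3 of the 37 windows (8.11%) and in 535 of all 32851 windows (1.63%). The 3 windows belong to Lef1, Tcf7 and Lgr4, and they are shown because Lef1 and Tcf7 fell and Lgr4 rose in SRF KO (values below). The bases are those upstream of the start, without annotated exons, 5′ to 3′ on the gene's strand, with the CArG box in capitals. The Lef1 stretch, chr3:131112541-131112790 on the plus strand, precedes 1 of 4 annotated starts and lies within longer transcripts. The Tcf7 stretch, chr11:52282596-52282711 on the minus strand, precedes 1 of 2 starts and is intronic in a longer transcript. The Lgr4 stretch is chr2:109917397-109917646 on the plus strand.
Lef1: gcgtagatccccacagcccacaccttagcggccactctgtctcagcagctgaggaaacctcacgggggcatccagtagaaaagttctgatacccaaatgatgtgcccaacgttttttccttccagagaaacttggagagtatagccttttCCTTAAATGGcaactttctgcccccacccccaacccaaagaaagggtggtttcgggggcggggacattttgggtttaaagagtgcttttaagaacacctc
Tcf7: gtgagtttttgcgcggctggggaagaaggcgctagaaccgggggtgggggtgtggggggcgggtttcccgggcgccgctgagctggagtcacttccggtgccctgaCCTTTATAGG
Lgr4: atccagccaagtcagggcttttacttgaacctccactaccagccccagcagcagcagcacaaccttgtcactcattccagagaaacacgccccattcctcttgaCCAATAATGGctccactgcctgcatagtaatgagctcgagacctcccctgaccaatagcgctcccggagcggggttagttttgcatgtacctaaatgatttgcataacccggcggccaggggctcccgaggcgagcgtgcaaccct

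The TCF/LEF core ATCAAAG, searched on both strands, was in 2 of the 37 windows (5.41%) and in 3.73% of all windows, and it overlapped no CArG box in the windows of these genes. The 2 windows belong to Wnt5b and Wnt11. Wnt11, which rose, is shown with the motif in capitals, from chr7:98834862-98835111 on the plus strand (GRCm38.p6), before 1 of 2 starts. A match is a run of letters and not a measured binding site.
Wnt11: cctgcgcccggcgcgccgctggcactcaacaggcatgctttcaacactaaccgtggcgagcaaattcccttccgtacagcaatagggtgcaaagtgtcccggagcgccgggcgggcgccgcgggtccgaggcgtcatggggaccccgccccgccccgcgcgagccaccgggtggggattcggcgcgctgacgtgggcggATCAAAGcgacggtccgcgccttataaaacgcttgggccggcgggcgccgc

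The ligands moved in both directions. Of 17 genes, 12 were tested, 5 rose and 2 fell, and 5 had too few counts for the test. The called share of the 12 was 58.3%, beside 41.1% of all features. The gene of largest fall was Wnt7b (chr15:85535437-85582473, GRCm38), which encodes a ligand best known from lung, brain and placenta. It had 6.46, 5.98 and 6.55 CPM in WT replicates 1 to 3 and 0.780, 0.491 and 1.002 CPM in SRF KO replicates 1 to 3. The groups lay far apart, with every WT library above 5 times any SRF KO library. The log2 fold change was -3.05 (SE 0.18, adjusted p of 2.02e-07 by edgeR). Wnt8a, a ligand of the early embryo and primitive streak, had 2.04, 2.06 and 2.06 CPM in WT and 1.15, 0.868 and 1.49 CPM in SRF KO. It fell by 0.80 on the log2 scale (SE 0.20, adjusted p of 0.00651 by edgeR), and its WT libraries were nearly equal while the SRF KO libraries were spread.

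The ligand genes that rose were Wnt2, Wnt5a, Wnt6, Wnt11 and Rspo3. Wnt5a (chr14:28504750-28527448, GRCm38), the best studied ligand of beta-catenin-independent Wnt signals, had 7.58, 7.51 and 8.15 CPM in SRF KO and 2.37, 2.80 and 3.31 CPM in WT. All SRF KO libraries were more than double any WT library, with a log2 fold change of 1.47 (SE 0.13, adjusted p of 4.07e-06 by edgeR). Wnt11, another ligand known for beta-catenin-independent signals and for cell movement in gastrulation, had 2.90, 2.11 and 2.25 CPM in SRF KO and 0.800, 0.738 and 1.29 CPM in WT, a log2 fold change of 1.36 (SE 0.23). Wnt6, a ligand known for its part in the differentiation of extraembryonic endoderm, had 1.63, 1.43 and 1.42 CPM in SRF KO and 0.359, 0.466 and 0.592 CPM in WT, a log2 fold change of 1.68 (SE 0.23). The groups did not overlap for either gene, and adjusted p was 0.00056 for Wnt11 and 0.000152 for Wnt6.

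Wnt2 was low in all libraries, with 22, 21 and 21 counts in SRF KO replicates 1 to 3 and 5, 3 and 2 counts in WT replicates 1 to 3. Its log2 fold change was 2.77 (SE 0.34, adjusted p of 6.07e-05 by edgeR). Rspo3, a secreted ligand of LGR receptors that raises the amount of Frizzled at the cell surface, had 4.20, 2.79 and 4.15 CPM in SRF KO and 1.88, 1.20 and 1.36 CPM in WT. It rose by 1.30 on the log2 scale (SE 0.21, adjusted p of 0.00042 by edgeR), with the lowest SRF KO library above the highest WT library. GENCODE places an antisense gene over 13.1% of its exon length, and over 10.1% of that of Wnt11. Whether counting used strand is not given in the sources used here, so reads of both strands could be joined there. The same holds for Fzd5 and Sfrp2, where antisense genes cover 17.8% and 17.3% of the exon length.

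The ligands that did not pass the test included Wnt3a, a strong activator of beta-catenin signals, with 0.911, 0.661 and 0.871 CPM in WT and 0.446, 0.566 and 0.587 CPM in SRF KO. Its log2 fold change was -0.62 (SE 0.25, adjusted p 0.0658), and it passed without WT replicate 2, at -0.73 with an edgeR adjusted p of 0.0363. Wnt3, Wnt4, Wnt5b and Wnt9a had log2 fold changes of -0.10, 0.31, 0.30 and -0.08, with edgeR adjusted p of 0.866, 0.193, 0.272 and 0.755. Left out of the test were Wnt1, Wnt2b, Wnt7a, Wnt10a and Wnt10b. Wnt1 had 1 count in WT replicate 2 and 0 in the other libraries, which allows up to 3 counts in each. Wnt7a had between 2 and 8 counts and Wnt10b at most 5 in any library. Wnt2b had 9, 15 and 12 counts in SRF KO and 6, 4 and 5 in WT, and Wnt10a had 8, 5 and 10 counts in SRF KO and 4, 0 and 2 in WT. With no filter on low counts both passed, at 1.38 (edgeR adjusted p 0.017) and 2.01 (edgeR adjusted p 0.0219), while Wnt1, Wnt7a and Wnt10b did not.

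To set ligands side by side, levels were divided by exon length in GENCODE M21. Summed over the 16 Wnt genes, the SRF KO level was 5.77 ± 0.465 CPM per kb and the WT level 5.43 ± 0.473 CPM per kb (SD, n = 3), so the groups differed by less than their SDs. What differed was the make-up of this sum. Wnt7b and Wnt8a together took between 43.8% and 49.5% of it in the WT libraries and between 11.4% and 17.2% in the SRF KO libraries. Wnt2, Wnt5a, Wnt6 and Wnt11 took between 14.8% and 19.3% in WT and between 44.8% and 52.4% in SRF KO. Both sets were chosen for their change, so these shares are a description and carry no test. Per kb, the highest ligand levels in WT were Wnt7b at 1.37 ± 0.0660 and Wnt8a at 1.18 ± 0.00508 CPM per kb (SD, n = 3), and the ranges of the 2 genes did not overlap. In SRF KO the highest was Wnt5a at 1.10 ± 0.0503 CPM per kb (SD, n = 3). It was followed by Wnt6, Wnt11 and Wnt8a at 0.722, 0.669 and 0.669 CPM per kb, which differed by less than their SDs of 0.0584, 0.116 and 0.177.

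**Figure D3:**
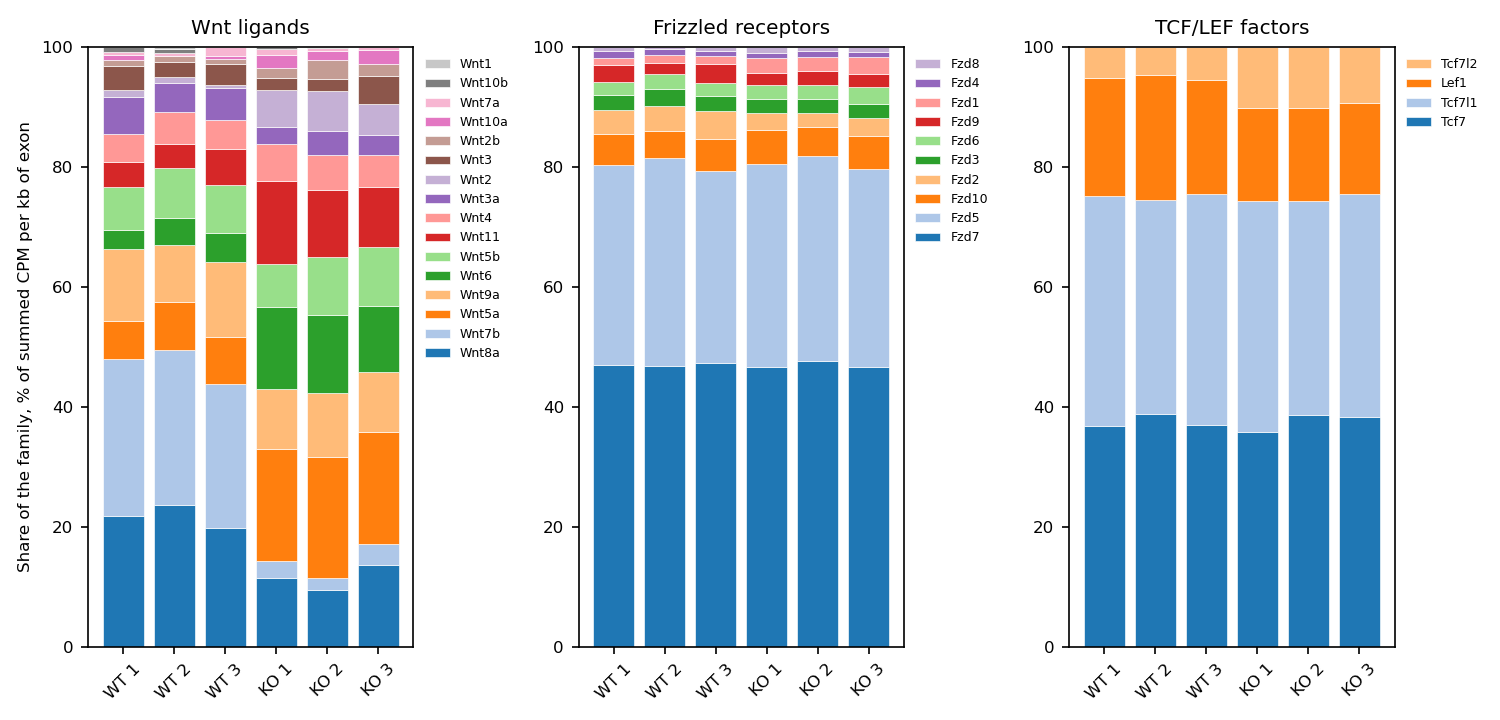
Each bar is 1 library, and the colours give the share of each gene in the summed CPM per kb of exon of its family, for Wnt ligands, Frizzled receptors and TCF/LEF factors. Wnt7b takes 25.3% of the ligands in WT and 2.81% in SRF KO on average, while Fzd7 takes 47.04% of the Frizzled receptors in WT and 47.01% in SRF KO.

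Receptors rose more often than they fell, mostly by small amounts. All 14 were tested, 9 rose and 1 fell, with a median log2 fold change of 0.25. The called share was 71.4%, beside 41.1% of all features. The 2 rises of at least 1 were those of Fzd1 and Lgr5. Fzd1 (chr5:4753839-4758035, GRCm38) had 7.95, 7.48 and 8.02 CPM in SRF KO and 3.17, 3.19 and 3.66 CPM in WT, with tight and widely separated groups, a log2 fold change of 1.23 (SE 0.11) and an edgeR adjusted p of 3.9e-06. Lgr5, an R-spondin receptor and marker of adult epithelial stem cells, was near the limit of detection, with 16, 21 and 16 counts in SRF KO and 4, 3 and 9 counts in WT. Its log2 fold change was 1.84 (SE 0.40, adjusted p of 0.00313 by edgeR).

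The abundant receptors showed small rises. Fzd5, which has the antisense overlap given above, had 173, 174 and 159 CPM in SRF KO and 139, 139 and 147 CPM in WT, a log2 fold change of 0.26 (SE 0.05, adjusted p of 0.00226 by edgeR). Fzd7, a receptor prominent in pluripotent cells, had 157, 159 and 149 CPM in SRF KO and 129, 123 and 142 CPM in WT, a log2 fold change of 0.24 (SE 0.06, adjusted p of 0.00787 by edgeR). The libraries of the 2 groups did not overlap for either gene, though the gap was narrow for Fzd7. The R-spondin receptor gene Lgr4 had 150, 163 and 142 CPM in SRF KO and 118, 124 and 120 CPM in WT, a log2 fold change of 0.33 (SE 0.06, adjusted p of 0.000737 by edgeR). The co-receptor gene Lrp6 had 134, 139 and 138 CPM in SRF KO and 116, 118 and 112 CPM in WT, a log2 fold change of 0.25 (SE 0.05, adjusted p of 0.00128 by edgeR). Neither gene's groups overlapped. The partner of Lrp6, Lrp5, was at 0.01 (SE 0.09, adjusted p of 0.915 by edgeR), with WT libraries between 59.7 and 78.9 CPM on both sides of SRF KO libraries between 69.3 and 74.9 CPM.

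Among the less abundant Frizzled genes, Fzd6, Fzd8 and Fzd10 rose by 0.39, 0.77 and 0.34 on the log2 scale (edgeR adjusted p 0.00804, 0.0081 and 0.0232). Fzd2 fell by 0.44 (edgeR adjusted p 0.0156), with 7.69, 6.12 and 7.46 CPM in SRF KO and 8.97, 8.59 and 11.3 CPM in WT. The call of Fzd10 was lost when SRF KO replicate 1, replicate 3 of the same group or WT replicate 1 was left out (log2 fold changes of 0.28, 0.34 and 0.34), and that of Fzd2 without SRF KO replicate 2 or WT replicate 3 (-0.33 and -0.31). Fzd3, Fzd4 and Fzd9 were at 0.08, 0.10 and -0.08 and did not pass. Per kb, Fzd7 and Fzd5 together took between 79.3% and 81.4% of the summed Frizzled level in WT and between 79.6% and 81.8% in SRF KO. The sum itself was 72.7 ± 2.19 CPM per kb in SRF KO and 61.6 ± 4.28 CPM per kb in WT (SD, n = 3).

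**Figure D4:**
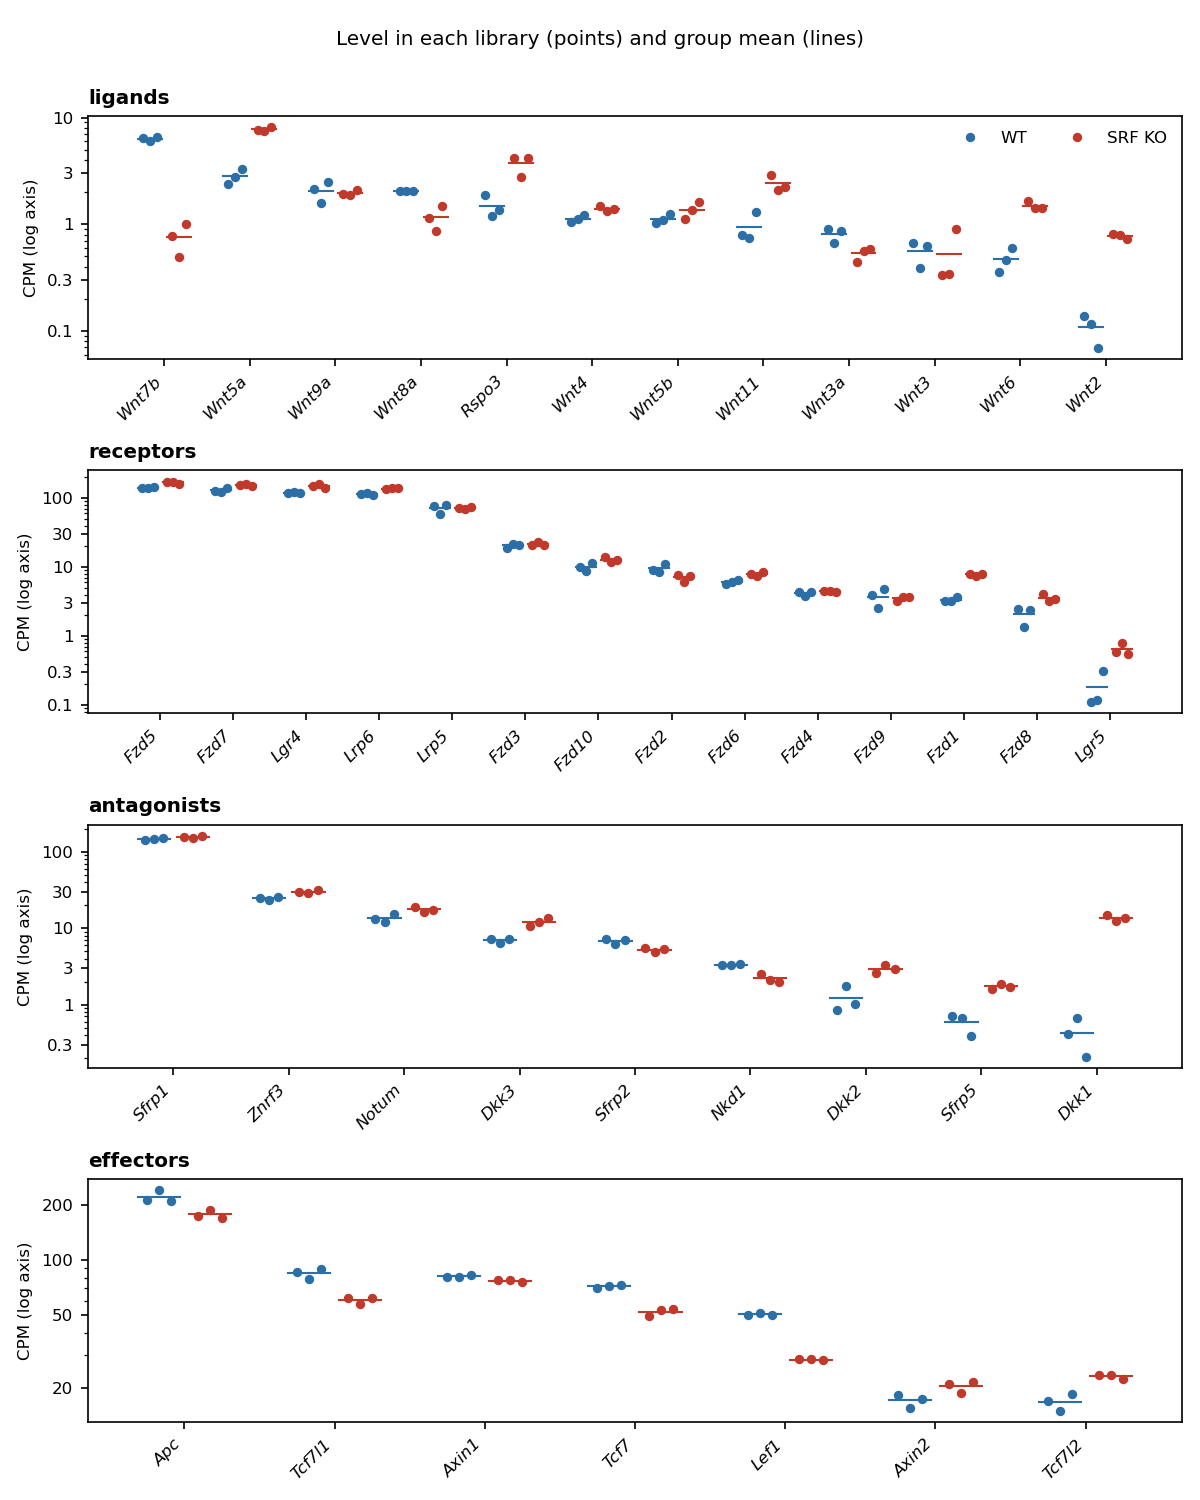
Points are the CPM of each library on a log axis and lines the group means, for the 42 tested genes by role, ordered by their WT mean. The SRF KO and WT points of Dkk1, Wnt7b and Lef1 are fully separated, while those of Lrp5 and Sfrp1 overlap.

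The antagonists held the largest change of the list. Of 9 tested genes, 6 rose and 2 fell, with a median log2 fold change of 0.39. The called share was 88.9%, beside 41.1% of all features. Dkk1 (chr19:30545863-30549665, GRCm38) encodes a secreted protein that blocks LRP5 and LRP6 and is made by anterior visceral endoderm in the embryo. It had 15.04, 12.6 and 13.6 CPM in SRF KO and 0.414, 0.661 and 0.209 CPM in WT. Counts were 405, 334 and 393 against 15, 17 and 6, so the WT libraries were low but above 0. The log2 fold change was 5.02 (SE 0.20, adjusted p of 6.19e-09 by edgeR), and mean levels differed 32.1-fold. Dkk2, a family member that can block or weakly activate LRP6, had 2.60, 3.28 and 2.94 CPM in SRF KO and 0.856, 1.75 and 1.01 CPM in WT, a log2 fold change of 1.33 (SE 0.23, adjusted p of 0.000726 by edgeR). WT replicate 2 was the highest WT library for both genes and still lay below all SRF KO libraries. Dkk3, a divergent member of the family, had 10.8, 12.0 and 13.5 CPM in SRF KO and 7.26, 6.33 and 7.18 CPM in WT, a log2 fold change of 0.80 (SE 0.10, adjusted p of 8.96e-05 by edgeR).

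Secreted Frizzled-related proteins bind Wnt proteins outside the cell, and the 3 genes of this family among the 47, Sfrp1, Sfrp2 and Sfrp5, differed in their calls. Sfrp1, the most abundant antagonist, had 158, 152 and 161 CPM in SRF KO and 145, 149 and 154 CPM in WT. These ranges overlapped, and the log2 fold change of 0.08 (SE 0.05) did not pass (edgeR adjusted p 0.235). Sfrp5, which is expressed in early visceral endoderm, had 1.60, 1.89 and 1.73 CPM in SRF KO and 0.718, 0.661 and 0.383 CPM in WT, a log2 fold change of 1.54 (SE 0.23, adjusted p of 0.000271 by edgeR). Sfrp2, with the antisense overlap given above, fell by 0.39 (SE 0.11, adjusted p of 0.0122 by edgeR), from 6.81 ± 0.565 to 5.22 ± 0.356 CPM (SD, n = 3). This call was lost without SRF KO replicate 2 (-0.33) or WT replicate 1 (-0.34). In the order of their levels per kb, Sfrp1 lay highest in both groups, at 35.96 ± 1.05 CPM per kb for SRF KO and 34.1 ± 0.991 CPM per kb for WT (SD, n = 3).

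The remaining antagonists are feedback targets that act outside the cell, at its surface or inside it. Notum, a secreted enzyme that removes the lipid of Wnt proteins, had 19.2, 16.3 and 17.3 CPM in SRF KO and 13.1, 12.1 and 15.2 CPM in WT, a log2 fold change of 0.39 (SE 0.10, adjusted p of 0.00736 by edgeR). The groups did not overlap, and antisense genes cover 38.3% of its exon length. Znrf3, a membrane ubiquitin ligase that removes Frizzled receptors, rose by 0.29 (SE 0.07, adjusted p of 0.00637 by edgeR), from 24.8 ± 1.42 to 30.3 ± 1.49 CPM (SD, n = 3). Nkd1, which binds Dishevelled in the cytoplasm, had 2.49, 2.11 and 2.004 CPM in SRF KO and 3.28, 3.26 and 3.38 CPM in WT. It fell by 0.59 (SE 0.14, adjusted p of 0.00495 by edgeR), in the opposite direction to the other 2 genes.

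The effectors were the only role in which falls outnumbered rises: of 7 tested genes, 4 fell and 2 rose, with a median log2 fold change of -0.31. The called share was 85.7%, beside 41.1% of all features. The 4 TCF/LEF factors, which bind DNA for beta-catenin, did not move together. Lef1 (chr3:131110471-131224356, GRCm38), mostly an activator, had 28.6, 28.6 and 28.3 CPM in SRF KO and 49.9, 51.4 and 49.97 CPM in WT. Both groups were tight, and SRF KO held 56.5% of the WT mean, with a log2 fold change of -0.82 (SE 0.05, adjusted p of 4.5e-07 by edgeR). An antisense gene covers 34.5% of its exon length. Tcf7 had 49.4, 52.9 and 54.0 CPM in SRF KO and 70.5, 72.2 and 73.0 CPM in WT, a log2 fold change of -0.46 (SE 0.05, adjusted p of 3.63e-05 by edgeR). Tcf7l1, the main repressor of the family in pluripotent cells, had 62.3, 57.5 and 61.6 CPM in SRF KO and 86.2, 78.3 and 89.3 CPM in WT, a log2 fold change of -0.48 (SE 0.06, adjusted p of 7e-05 by edgeR). In all 3 genes every WT library lay above every SRF KO library. Tcf7l2 went the other way, with 23.5, 23.4 and 22.4 CPM in SRF KO and 16.8, 14.9 and 18.4 CPM in WT, a log2 fold change of 0.46 (SE 0.08, adjusted p of 0.000907 by edgeR).

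Summed per kb, TCF/LEF levels were 52.8 ± 0.778 CPM per kb in SRF KO and 72.97 ± 2.13 CPM per kb in WT (SD, n = 3). Within this sum Tcf7 and Tcf7l1 kept similar shares, with 37.6% and 37.1% in SRF KO and 37.5% and 37.6% in WT. The share of Tcf7l2 was 9.87% ± 0.404 in SRF KO and 5.16% ± 0.397 in WT, and that of Lef1 was 15.4% ± 0.314 and 19.7% ± 0.881 (SD, n = 3). For both genes the libraries of the 2 groups did not overlap.

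In the destruction complex, Apc, its scaffold and the product of a tumour suppressor gene, had 175, 187 and 171 CPM in SRF KO and 212, 240 and 209 CPM in WT. It fell by 0.31 (SE 0.06, adjusted p of 0.00189 by edgeR), and WT replicate 2 was the highest library. Axin1, the constitutive scaffold, had 77.8, 77.9 and 75.4 CPM in SRF KO and 80.7, 80.8 and 83.1 CPM in WT. These ranges did not overlap, but the log2 fold change of -0.08 (SE 0.05) did not pass (edgeR adjusted p 0.191). Axin2, the scaffold that is also a general feedback target of beta-catenin, had 20.9, 18.8 and 21.5 CPM in SRF KO and 18.1, 15.5 and 17.4 CPM in WT. It rose by 0.26 (SE 0.08, adjusted p of 0.0277 by edgeR), and this call was lost without SRF KO replicate 1 (0.24) or SRF KO replicate 3 (0.22).

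Other genes of the pathway were taken from a list of 66, of which 59 were tested. In SRF KO 13 rose and 12 fell, together 42.4%, close to the 41.1% of all features, and the median log2 fold change was -0.08. Without WT replicate 2 the number lower was 22, and the called share was 59.3% of the list and 48.1% of all features, so the shares were not close in that fit. Rises of at least 1 were made by Cer1, Frzb, Rspo2 and Myc. Cer1, a secreted antagonist of Wnt, Nodal and BMP made by anterior visceral endoderm, had 60, 49 and 69 counts in SRF KO and 3, 1 and 4 counts in WT, a log2 fold change of 4.55 (SE 0.32, adjusted p of 7.16e-07 by edgeR). Frzb, a secreted Frizzled-related antagonist, had 6.61, 5.55 and 6.98 CPM in SRF KO and 2.10, 1.79 and 1.95 CPM in WT, a log2 fold change of 1.70 (SE 0.14, adjusted p of 2.11e-06 by edgeR). They were the only 2 of 11 tested further antagonists that rose, while Rnf43, a ubiquitin ligase like Znrf3, fell by 0.84 and 8 did not pass (median log2 fold change -0.15). The called share of the 11 was 27.3%. Rnf43 was low, with 22, 14 and 21 counts in SRF KO and 51, 20 and 42 counts in WT. Its groups overlapped in CPM, and its adjusted p by edgeR was 0.0309. Rspo2, an R-spondin like Rspo3, was low, with 23, 28 and 31 counts in SRF KO and 13, 10 and 13 counts in WT. It rose by 1.32 (SE 0.25, adjusted p of 0.00122 by edgeR).

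Of 6 further target genes of beta-catenin, Myc and Ccnd1 rose, T fell and Sp5, Cdx1 and Cdx2 did not pass. The called share was 50%, beside 41.1% of all features. Myc, a growth-promoting transcription factor, had 88.7, 86.2 and 88.5 CPM in SRF KO and 40.6, 41.3 and 41.1 CPM in WT, a log2 fold change of 1.10 (SE 0.05, adjusted p of 1.56e-08 by edgeR). T, the primitive streak factor brachyury, had 1.08, 1.55 and 2.07 CPM in SRF KO and 3.45, 3.34 and 3.73 CPM in WT, a log2 fold change of -1.15 (SE 0.19, adjusted p of 0.000599 by edgeR). Together with the rises of Axin2, Notum and Znrf3 and the fall of Nkd1, the genes named here as targets did not share a direction. They are not a full list of pathway targets. The gene of beta-catenin, Ctnnb1, had 624, 608 and 621 CPM in SRF KO and 675, 653 and 676 CPM in WT. Its log2 fold change of -0.11 (SE 0.05) did not pass (edgeR adjusted p 0.0668), but passed without WT replicate 2 (-0.13, edgeR adjusted p 0.0152). Gsk3b, its kinase in the destruction complex, was at -0.04 (SE 0.05, adjusted p of 0.466 by edgeR).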

How the data were processed

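Bulk RNA of 3 SRF KO and 3 WT libraries was sequenced as paired reads of 150 bp. Per the labels' protocols, the authors trimmed adaptors and discarded poor or empty reads. The build mm10 and DESeq2 are named, with no role, per the submitters' processing notes. The aligner, counting program, annotation and strand setting are not given in the sources used here. The deposited values are whole-number counts per gene and per transposable element subfamily, without normalization, in 1 table of 24421 gene and 1146 subfamily entries. Columns were matched to samples by title.

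Genes and subfamilies entered 1 fit, made with edgeR 4.0.16 under R 4.3.3: filterByExpr with a minimum count of 10, TMM scaling, and the quasi-likelihood test of SRF KO against WT with Benjamini-Hochberg adjustment over 15611 features (14778 genes and 833 subfamilies), threshold 0.05. Fold changes carry edgeR's small prior count, which matters for the lowest genes. The alternatives were DESeq2 1.42.0, RLE scaling, no filter, gene entries alone, a replicate term, stricter thresholds and leaving out each library. On simulated counts of the same 15611 features, 100% of 96 genes changed by 1 and of 104 changed by 2 on the log2 scale were called, with 1.48% false calls. The 200 changed features were drawn from those with higher counts, and all features shared a common dispersion. Recovery of low genes such as Wnt2 and Lgr5, and the effect of a library like WT replicate 2, were therefore not measured. Counting error alone is 10% at 100 counts, and a count of 0 allows 3, or between 0.0828 and 0.117 CPM, for counting error only. Chi-square per degree of freedom between replicates was at least 1.83, so libraries differed by more than counting error. Each library was counted as 1 replicate, though these values do not show that libraries came from separate cultures.

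The 47 genes, their roles and the lists of other pathway genes and markers were chosen with earlier results of these data known. Library values were given for genes that passed with a log2 fold change of 1 or more in size, for up to 3 others per role with the smallest p and for the most abundant of each role. Further library values, the gene sets whose shares are summed, and shares per exon length were chosen after values were seen. Exon lengths and positions are from GENCODE M21 (GRCm38, which is mm10), and promoters from RefSeq. Samples were not pooled, and none was left out of the main comparison.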

Additional observations from a re-analysis of the deposited data

How the results depend on the processing

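The 31 calls among the Wnt genes were also made, with the same sign, by DESeq2, with RLE scaling, with gene entries alone and with no filter, which added Wnt2b and Wnt10a. Leaving out each replicate in turn, between 20 and 23 Wnt genes were higher and between 7 and 10 lower. Calls that changed in these fits were those of Fzd2, Fzd10, Sfrp2 and Axin2, which were lost in some, and Wnt3a, which was gained. Wnt2b entered the test and was called in 4 of them. Genes without a call changed sign: Wnt3 ranged from -0.75 to 0.14 (0.054 without WT replicate 1), Wnt9a from -0.21 to 0.055, Fzd9 from -0.27 to 0.10 and Lrp5 from -0.092 to 0.087 (-0.012 without SRF KO replicate 3), and the cause was not tested. Thresholds lower counts by construction: with a log2 fold change of 1 or more in size, Wnt genes higher and lower were 10 and 1, other pathway genes 4 and 1, and all features 822 and 265, and at an adjusted p of 0.01 features lower were 2043. For other pathway genes, the number lower was between 11 and 22 when one replicate was left out (22 without WT replicate 2), and the number higher between 12 and 13. Srf was between -3.23 and -2.98 in these fits.

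Replicate numbers were not taken to pair the libraries. Deviations of same-numbered libraries correlated at 0.0474, 0.279 and 0.148, highest for replicate 2, which stood apart in both groups. These values do not decide whether libraries were paired, as differently numbered libraries were not compared. With a replicate block, 22 Wnt genes were higher and 9 lower, the same 31, and other pathway genes lower were 20. Features higher and lower were 3721 and 3991, against 3181 and 3233 without the block, with Srf at -3.12 under it. Ctnnb1 passed under the block (-0.11). Shares of families computed with the longest transcript kept their direction wherever the groups did not overlap, an alternative chosen after seeing the data. The difference in share was -27.4 percentage points for Wnt7b and 5.30 for Tcf7l2 then, against -22.5 and 4.71. Depth limits Wnt2, Lgr5 and the 5 untested ligands, which rest on fewer than 25 counts in any library.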

Other observations

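Several Wnt genes sit next to each other in the genome, and their values can be read by pair. Wnt6 and Wnt10a lie 6.19 kb apart on chromosome 1 (GRCm38). In both, every SRF KO library was above every WT library, as in 25.3% of all tested features. Counts were 44, 38 and 41 against 13, 12 and 17 for Wnt6 and 8, 5 and 10 against 4, 0 and 2 for Wnt10a. Wnt10a had too few counts for the main test. Wnt3a and Wnt9a lie 16.2 kb apart on chromosome 11, and neither passed the test, with log2 fold changes of -0.62 and -0.08. Wnt10b and Wnt1 lie 11.7 kb apart on chromosome 15, and both were at 5 counts or fewer in every library. Wnt9b and Wnt3 are also neighbours on chromosome 11: Wnt9b had at most 3 counts in any library and Wnt3 did not pass (-0.10).

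Among 8 further genes of ligands and their secretion, 5 were tested, 2 rose and 1 fell. Among 14 further receptor and co-receptor genes, 4 rose, 3 fell and 7 did not pass (median log2 fold change -0.13). The called shares were 60% of those 5 and 50% of those 14, beside 41.1% of all features. Wls, the carrier that brings Wnt proteins to the cell surface, had 30.1, 27.2 and 31.6 CPM in SRF KO and 14.6, 16.3 and 17.6 CPM in WT (log2 fold change 0.88, SE 0.09, edgeR adjusted p 9.96e-06). Porcn, the enzyme that adds their lipid, fell by 0.38 (SE 0.07, edgeR adjusted p 0.00146). Gpc4, a cell surface glypican, had 83.6, 79.4 and 79.2 CPM in SRF KO and 45.4, 42.8 and 45.6 CPM in WT (log2 fold change 0.85, SE 0.05, edgeR adjusted p 2.57e-07), whereas the glypican Gpc3 was at 0.02 (edgeR adjusted p 0.801). The genes named here were chosen after their values were seen.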
